A study of Mus musculus with 2 samples.

Results

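The triglyceride synthesis enzymes examined here are 9 mouse genes, Gpam, Agpat2, Lpin1, Lpin2, Lpin3, Mogat1, Mogat2, Dgat1 and Dgat2, out of 20886 genes that could be named on the arrays. They were chosen by name, with earlier results of these data known. Of 39429 probes, 10 carried a transcript accession of one of them, 2 for Lpin1 and 1 for each of the others. All 9 genes were measured on both arrays. The mice were male C57BL/6J WT animals kept on a high-fat diet (HFD) or a normal diet (ND) for 4 weeks before the tissues were taken. RNA of 10 livers and of 10 adipose tissues was combined by diet, and each tissue was hybridised once, with the HFD pool in the red channel (Cy5) and the ND pool in the green channel (Cy3). The fat depot, the age of the mice and the number of animals in each pool are not given in the sources used here. The 4 groups are therefore 4 RNA pools, HFD and ND adipose tissue on one array and HFD and ND liver on the other.

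Triglyceride is built by adding fatty acyl chains to a glycerol backbone. In most cells glycerol-3-phosphate receives a first acyl chain from an acyltransferase such as GPAM and a second from an enzyme such as AGPAT2, a lipin removes the phosphate to leave diacylglycerol, and DGAT1 or DGAT2 adds the last chain. Enterocytes of the small intestine use a shorter route for dietary fat, in which MOGAT2 makes diacylglycerol from absorbed monoacylglycerol. In adipose tissue the product is stored in lipid droplets, and in liver part of it leaves in very-low-density lipoprotein.

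With 1 array per tissue there was no replicate and no dye swap, so the values below carry no spread over mice and no p-values. The ratios are log2 of the HFD pool over the ND pool, and "higher" or "lower" is used as a call for changes of 2-fold and more. The error printed after "±" is the scanner software's own error of the ratio, on the log2 scale, which covers the measurement of the spots and not the animals. Each enzyme probe had 1 spot. Probes with at least 5 spots, 279 on the adipose array and 277 on the liver array, had a median SD between spots of 0.05 log2 units on either array. Median spot signals were 274 (HFD) and 97 (ND) on the adipose array and 127 (HFD) and 93 (ND) on the liver array. The uncorrected signals printed below carry this difference between the channels, so they do not give the ratio of the pools. Each tissue had its own array, so tissue and array cannot be told apart, and in tissue RNA fewer cells of a type and less RNA per cell cannot be told apart either.

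Markers of the labelled tissues were bright where the labels put them. The median log2 level of 15 measured adipocyte markers was 14.44 (HFD) and 14.62 (ND) on the adipose array, and that of 18 hepatocyte markers was 16.78 (HFD) and 16.36 (ND) on the liver array. The adipose pools also held RNA of other organs. Of 20 enterocyte markers, 18 were measured there and 17 of these were at least 2-fold higher in the HFD pool. Slc15a1 and Rbp2, the remaining 2, were above background in the HFD pool alone. The log2 of the summed level of the measured enterocyte markers was 18.92 in the HFD adipose pool and 15.31 in the ND adipose pool. Hepatocyte markers ran the other way, with 14 of 18 at least 2-fold lower in the HFD adipose pool, and so did markers of exocrine pancreas (13 of 15) and of the male reproductive tract (8 of 8).

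The promoters of the 3 lipins are shown because these closely related enzymes gave unlike ratios on the adipose array. In liver none of the 3 passed 2-fold as a gene average. RefSeq promoter sequences of GRCm38.p6, 250 bases before to 50 bases after a transcript start, were matched for 6 of the 9 genes, all but Dgat1, Dgat2 and Mogat2. The array design is annotated on the older build mm9, and these sequences were not measured on the arrays. Those below run 5′ to 3′ on the strand of the gene and stand for the Lpin1 start (chr12:16610917-16611216, minus strand), the first of 3 Lpin2 starts (chr17:71183282-71183581, plus strand) and the first of 2 Lpin3 starts (chr2:160880420-160880719, plus strand). Capitals mark the E-box CACGTG, bound by clock and carbohydrate-responsive factors, and the glucocorticoid receptor half-site AGAACA or its reverse complement.
Lpin1: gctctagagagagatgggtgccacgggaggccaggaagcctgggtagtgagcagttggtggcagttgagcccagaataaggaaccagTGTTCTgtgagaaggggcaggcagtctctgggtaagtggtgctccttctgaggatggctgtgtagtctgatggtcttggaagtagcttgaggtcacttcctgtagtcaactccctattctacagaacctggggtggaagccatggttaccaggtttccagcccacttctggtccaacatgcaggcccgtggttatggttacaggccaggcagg
Lpin2: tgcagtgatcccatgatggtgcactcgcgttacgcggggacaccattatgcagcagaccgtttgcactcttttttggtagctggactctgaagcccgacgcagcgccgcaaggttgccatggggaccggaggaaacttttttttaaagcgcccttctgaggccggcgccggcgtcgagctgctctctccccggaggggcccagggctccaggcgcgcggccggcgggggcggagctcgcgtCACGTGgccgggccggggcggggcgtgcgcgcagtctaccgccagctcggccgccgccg
Lpin3: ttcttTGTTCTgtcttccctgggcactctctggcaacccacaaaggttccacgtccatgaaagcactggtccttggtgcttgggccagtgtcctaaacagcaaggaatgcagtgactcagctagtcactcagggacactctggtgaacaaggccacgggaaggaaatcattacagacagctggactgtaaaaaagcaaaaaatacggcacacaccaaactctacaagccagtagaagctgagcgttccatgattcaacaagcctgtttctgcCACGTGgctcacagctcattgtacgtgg

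Both strands were searched, and the motifs do not overlap in these windows. The E-box was found in the printed Lpin2 and Lpin3 windows and in 7.15% of 32851 promoters of this length. The half-site was found in the printed Lpin1 and Lpin3 windows, in the window of another Lpin2 start (chr17:71204404-71204703, not printed) and in 19.0% of all promoters, so all 3 lipins have it at some start. The intestinal motif TTTATNG of CDX factors (10.9% of promoters) and the motif CAAAGTCCA of HNF4A (0.475%) were in none of the 10 windows of the 6 genes. A match describes the letters of a window and is not a binding site.

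In the adipose RNA pool of HFD mice the RNA of a monoacylglycerol acyltransferase, a final-step acyltransferase and a lipin was higher. Of the 9 genes, 3 were at least 2-fold higher in the HFD pool and none was lower, against 4.23% higher and 5.13% lower among all 14315 genes of the array. The 3 were Mogat2, Dgat2 and Lpin3. In the same pool 17 of 18 measured enterocyte markers were at least 2-fold higher, and the part of intestinal RNA in these ratios was not tested. The median ratio of the 9 was 0.81, against -0.01 for all genes. Another 2, Dgat1 and Agpat2, had ratios of 1.78-fold and 1.75-fold, and Mogat1, Gpam and the brighter Lpin1 probe had ratios below 0. On the liver array the same 9 genes had a median of -0.09, against 0.01 for all 13642 genes, and as gene averages none reached 2-fold, where 0.491% of all genes were higher and 0.579% lower. That average hides Lpin1, whose 2 probes were far apart in liver.

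**Figure D1:**
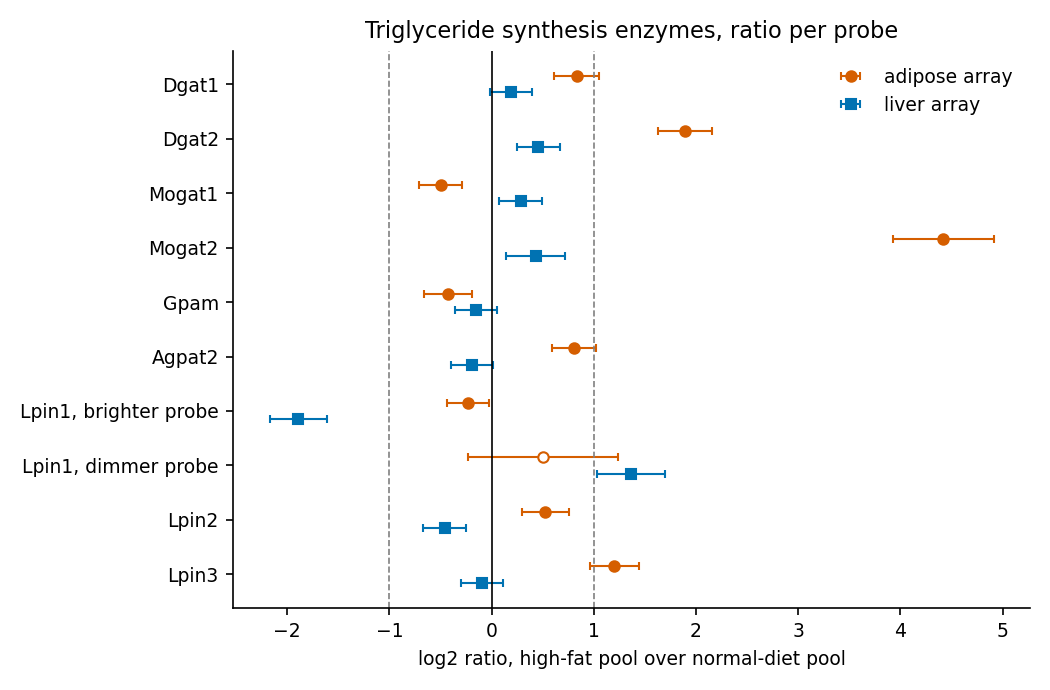
Log2 ratio of the HFD over the ND pool for each probe of the 9 genes, with the scanner error as bars. Circles are the adipose array, squares the liver array, the open circle is a probe above background in the HFD pool alone, and dashed lines mark 2-fold. Mogat2, Dgat2 and Lpin3 lie to the right of the upper line in adipose tissue, and the Lpin1 probes lie past both lines in liver.

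Neither enzyme of the first acylation steps passed 2-fold, except that Agpat2 did in fat with median centring (log2 ratio 1.74). Gpam encodes the mitochondrial enzyme that starts the pathway. Its log2 level was 7.03 in the HFD adipose pool, against 7.46 in the ND adipose pool, and 8.37 in HFD liver, against 8.52 in ND liver. The ratios were -0.43 ± 0.23 in adipose tissue and -0.15 ± 0.21 in liver, neither past 2-fold. The uncorrected signals of Gpam were 256 (HFD) and 117 (ND) over local backgrounds of 53 and 29 in adipose tissue, and 333.5 (HFD) and 230 (ND) over 45 and 27 in liver.

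Agpat2 encodes the acyltransferase whose loss in humans causes congenital generalised lipodystrophy, a near absence of body fat. It was at 10.73 in the HFD adipose pool, against 9.92 in the ND adipose pool (ratio 0.81 ± 0.22, 1.75-fold). In liver it was at 11.62 in the HFD pool, against 11.81 in the ND pool (-0.19 ± 0.20). Among all genes of the adipose array, 5.72% had a higher ratio than Agpat2.

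The lipins take the phosphate off phosphatidate, and LPIN1 in liver is also known as a partner of PPARalpha and PGC-1alpha in the nucleus. Lpin1 was measured by 2 probes that carry the same transcript accession. In liver the brighter probe had a log2 level of 8.59 in the HFD pool, against 10.49 in the ND pool, a ratio of -1.89 ± 0.28 (3.72-fold lower). The dimmer probe had 8.42 in the HFD pool, against 7.06 in the ND pool, a ratio of 1.36 ± 0.33 (2.57-fold higher). The uncorrected signals show the same split, 446 (HFD) and 961 (ND) for the brighter probe and 329 (HFD) and 79 (ND) for the dimmer one, over local backgrounds of 56 and 28 and of 50 and 29. The scanner software's own ratios were -2.06 and 2.61. With all local backgrounds as deposited, which keeps 1602 red and 665 green backgrounds marked as outliers on this array, the ratios were -0.66 and 0.12 and the split did not reach 2-fold.

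Of 3397 genes with 2 or more measured probes on the liver array, Lpin1 alone (0.0294%) had a probe at least 2-fold higher and another at least 2-fold lower, and no gene did with backgrounds as deposited. The Lpin1 probes were 3.26 log2 units apart, the median distance between the lowest and highest probe of a gene was 0.14, and the largest distance in any other gene was 2.60. Single probes passed 2-fold in 0.565% (higher) and 0.571% (lower) of 17702 named probes. The mean of the Lpin1 probes, -0.27, lies between them and near neither. The probe sequences were not used here, so which exons or isoforms the probes bind was not tested. Skeletal muscle, which expresses Lpin1, moved on the same array: 13 of 18 measured muscle markers were at least 2-fold lower in the HFD liver pool (median -1.19), with a log2 summed level of 14.74 (HFD) and 16.13 (ND). Their part in the ratio of the brighter probe was not tested.

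**Figure D2:**
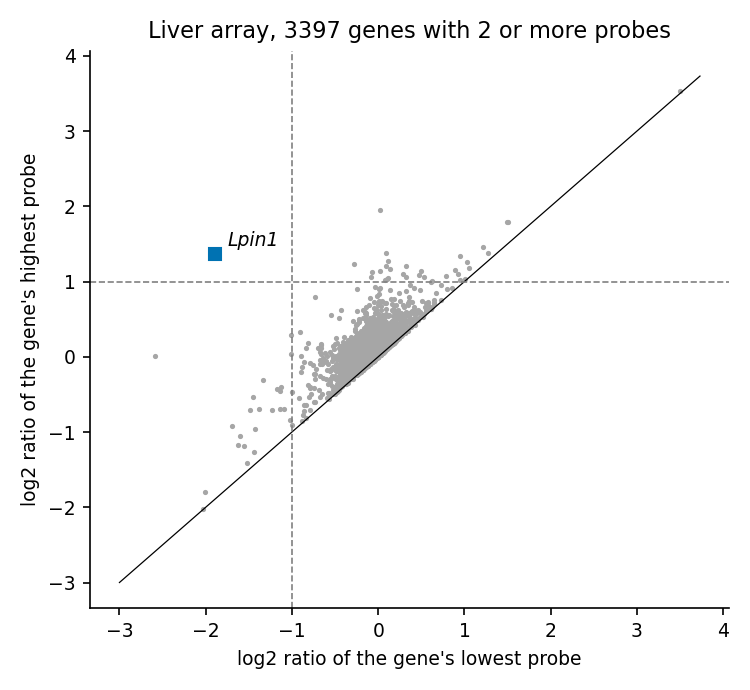
Ratio of the highest against the lowest probe of each gene on the liver array, for 3397 genes with 2 or more measured probes. The diagonal marks equal ratios and the dashed lines mark 2-fold. Lpin1 is the single gene in the upper left field, at -1.89 and 1.36.

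In adipose tissue the brighter Lpin1 probe was at 11.03 in the HFD pool, against 11.25 in the ND pool, a ratio of -0.23 ± 0.21. With median centring the ratio was 0.76, against 0.69 for all genes there. The uncorrected signals of this probe were 4871.5 (HFD) and 1081 (ND). The dimmer probe was above background in the HFD pool alone, so its ratio is a bound of 1.30-fold. That bound, 0.38 log2 units, lies within the scanner error of 0.73, so it gives no firm direction. On this array 4188 probes were above background in the HFD pool alone and 520 in the ND pool alone. The dimmer Lpin1 probe lay close to background, with uncorrected signals of 122 (HFD) and 55 (ND), so the distance between the probes was not measured in fat.

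Lpin2, known as the main lipin of liver, had unlike ratios in the 2 tissues. In adipose tissue it was dim, at 7.95 in the HFD pool, against 7.42 in the ND pool (0.52 ± 0.23). In liver it was at 11.31 in the HFD pool, against 11.77 in the ND pool (-0.46 ± 0.21), a ratio below that of 97.0% of liver genes. Neither passed 2-fold.

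Lpin3, a lipin known from gut and liver, passed 2-fold in adipose tissue. It was at 10.47 in the HFD pool, against 9.28 in the ND pool, a ratio of 1.20 ± 0.24 (2.30-fold), with uncorrected signals of 3453 (HFD) and 300 (ND). In liver it was at 9.14 in the HFD pool, against 9.23 in the ND pool, a ratio of -0.09 ± 0.21. The ND levels of the 2 tissues were 0.05 log2 units apart, while the HFD adipose pool stood above the other 3. The scanner error does not cover levels compared between arrays.

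The monoacylglycerol acyltransferases had ratios of opposite sign in fat, though with median centring both lay above 0. Mogat2, the intestinal enzyme, had the largest ratio of the 9. Its level was 13.85 in the HFD adipose pool, against 9.43 in the ND adipose pool, a ratio of 4.42 ± 0.49 (21.4-fold), and 32 of 14315 genes had a higher one. The uncorrected signals were 33837 (HFD) and 290 (ND). In liver Mogat2 was near background in both pools, at 7.35 (HFD) and 6.92 (ND), against a lowest level among probes above background of 6.37 (HFD) and 6.19 (ND). Its liver ratio was 0.43 ± 0.29, and 1.16 by the scanner software. With the background correction alone changed it lay between 0.0256 and 0.68, short of 2-fold.

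Mogat1 was at 10.65 in the HFD adipose pool, against 11.15 in the ND adipose pool (-0.50 ± 0.21), with uncorrected signals of 3790.5 (HFD) and 1028 (ND). In liver it was at 8.45 in the HFD pool, against 8.16 in the ND pool (0.28 ± 0.21). The difference between the tissues' ratios, adipose minus liver, was -0.78, with a combined scanner error of 0.30. The adipose ratio of Mogat1 was above 0 with median centring (0.47), where the median of all genes was 0.69.

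The last step is shared by enzymes of unrelated protein families. Dgat2 belongs to the family of the Mogat enzymes and is known to handle newly made fatty acids. It was at 16.11 in the HFD adipose pool, against 14.22 in the ND adipose pool, a ratio of 1.89 ± 0.27 (3.71-fold), exceeded by 1.67% of genes. In liver it was at 15.38 in the HFD pool, against 14.92 in the ND pool, a ratio of 0.46 ± 0.21 (1.37-fold). Liver genes of like brightness had a median ratio of 0.04.

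Dgat1, which enterocytes use to pack dietary fat into chylomicrons, was at 12.62 in the HFD adipose pool, against 11.78 in the ND adipose pool (0.83 ± 0.22, 1.78-fold). In liver it was at 10.37 in the HFD pool, against 10.18 in the ND pool (0.19 ± 0.21), which is within the scanner error.

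Dgat2 and Mogat2 are direct neighbours on the chromosome, with 0 annotated genes between them in GRCm38.p6. They had the 2 highest gene ratios of the 9 in fat. In liver they did so too, but not with median centring, with local backgrounds as deposited or by the scanner software, where Mogat1 lay above one of them. The protein-coding genes on either side, named after the pair was seen, did not pass 2-fold. Uvrag had a ratio of 0.13 ± 0.20 in adipose tissue and 0.17 ± 0.21 in liver, and Map6 had 0.33 ± 0.21 and 0.22 ± 0.21.

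**Figure D3:**
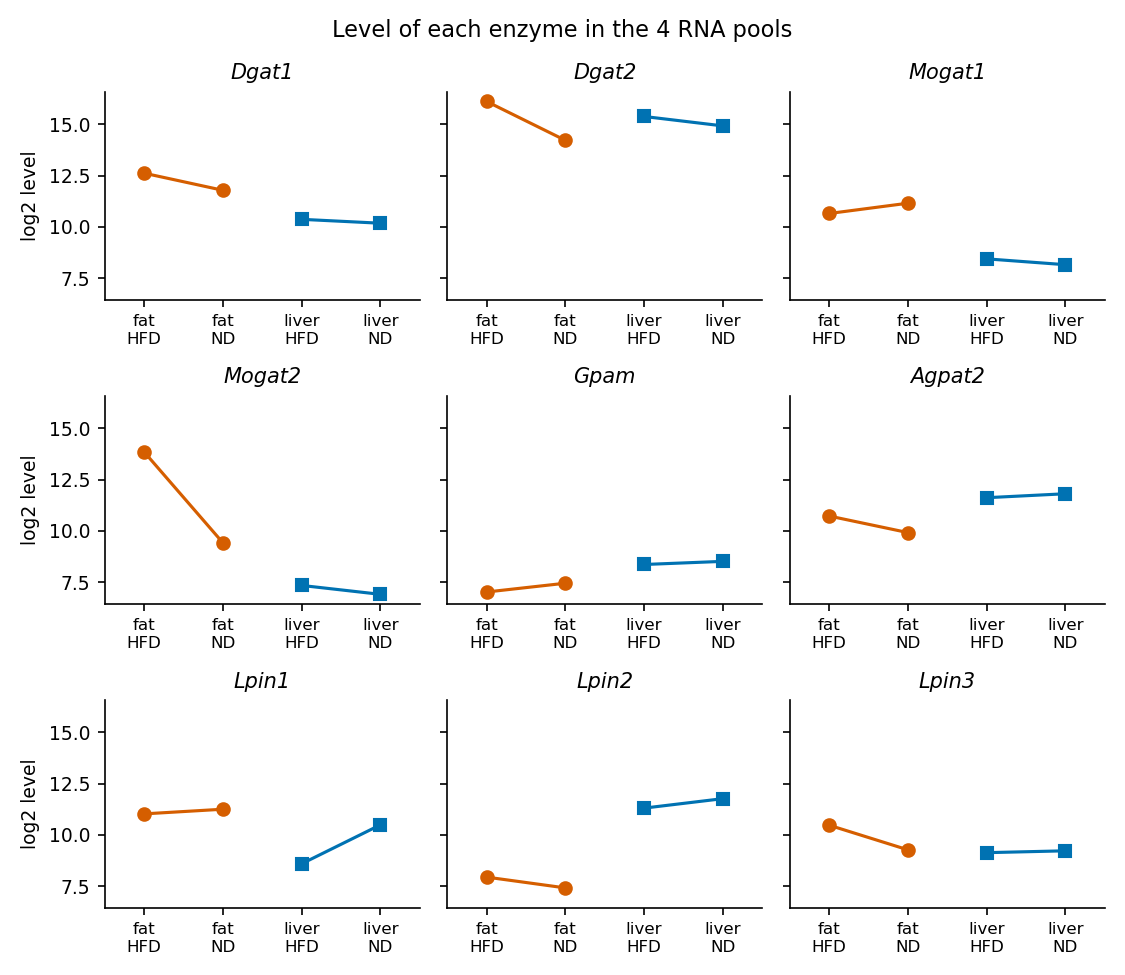
Log2 level of each gene in the HFD and ND pools of adipose tissue (circles) and liver (squares), scaled to a common brightness distribution of the arrays. Lpin1 is its brighter probe. The order of the pools differs from gene to gene, with Lpin2 highest in liver and Mogat2 highest in the HFD adipose pool.

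Lpin2, Gpam and Agpat2 were brighter in liver, and Dgat1, Mogat1 and the brighter Lpin1 probe in adipose tissue. Levels were compared between tissues only for the same probe, after the mean intensities of the arrays had been given one distribution. Lpin2 was 10.2-fold brighter in liver in the HFD pools and 20.3-fold in the ND pools, and Gpam 2.53-fold and 2.09-fold. Agpat2 was 1.85-fold brighter in liver in the HFD pools and 3.71-fold in the ND pools. Adipose tissue was brighter for Dgat1 (4.74-fold in the HFD pools and 3.04-fold in the ND pools), for Mogat1 (4.62-fold and 7.96-fold) and for the brighter Lpin1 probe (5.39-fold and 1.70-fold).

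For Dgat2 the order of the tissues differed between the HFD and the ND pools, by less than 2-fold in each, and the scanner error does not cover levels compared between arrays. The HFD adipose pool was 1.66-fold brighter than HFD liver, while the ND adipose pool was 1.63-fold dimmer than ND liver. Mogat2 was 90.6-fold brighter in adipose tissue in the HFD pools and 5.71-fold in the ND pools. In liver it was near background, which limits these folds. The adipose pools also held RNA of intestine and other organs, and its part in these levels was not tested.

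**Figure D4:**
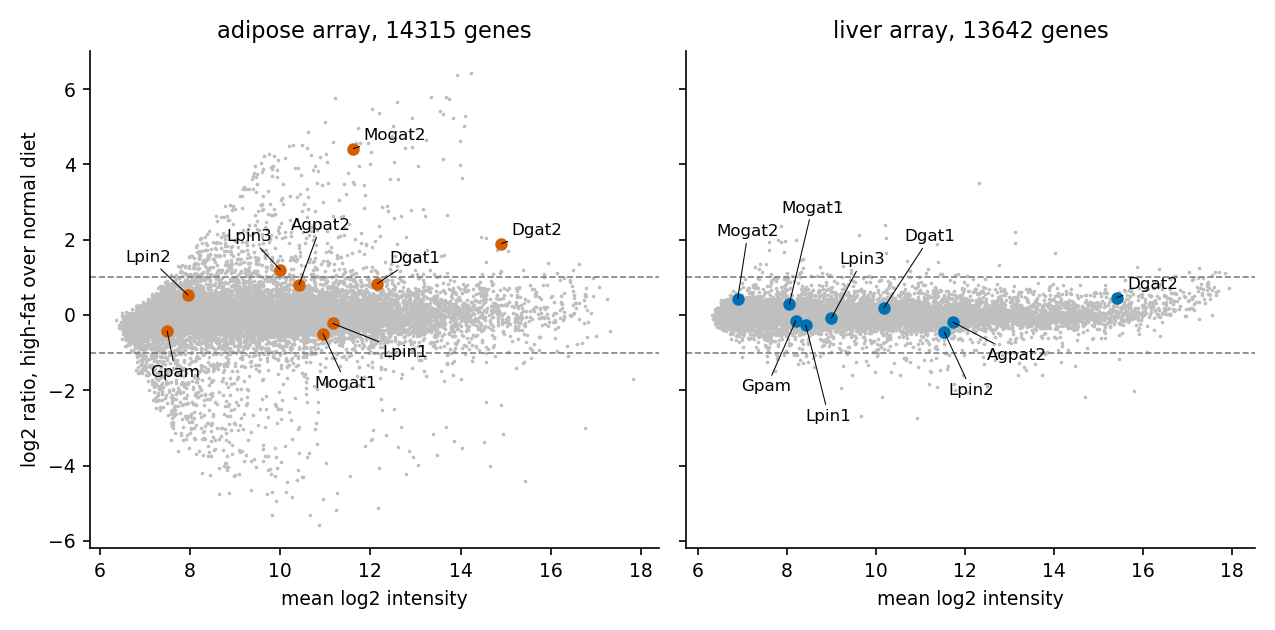
Ratio against mean log2 intensity of every measured gene (grey) with the 9 enzymes marked, adipose array left and liver array right. Dashed lines mark 2-fold. Mogat2 and Dgat2 stand clear of the bulk of genes in adipose tissue, and in liver the 9 lie inside the 2-fold lines, with Lpin1 drawn as the mean of its 2 probes.

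The adipose ratios of the enzymes stand beside a shift of intestinal markers. The 18 measured enterocyte markers had a median ratio of 3.32 on that array, from 0.23 for Heph to 6.42 for Fabp2, which carries fatty acids inside enterocytes. Sis, a disaccharidase of the intestinal surface, was at 5.76 and Mep1b, a meprin metalloprotease, at 5.36. The 15 adipocyte markers had a median of 0.31, with Lep, the fat-mass hormone leptin, higher (1.66) and Cfd, the protease adipsin, lower (-1.70). The part of the intestinal RNA in the ratios of the enzymes was not tested. In liver none of the 9 measured enterocyte markers passed 2-fold, with a median of 0.06.

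**Figure D5:**
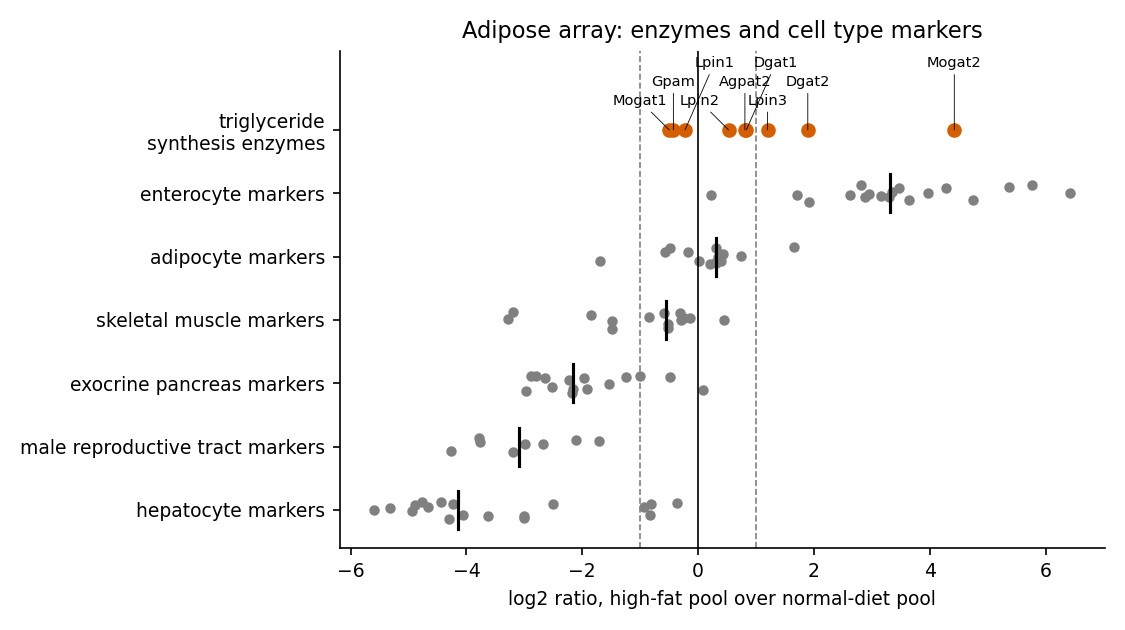
Ratios on the adipose array of the 9 enzymes (top row) and of the measured markers of 6 cell types or organs, with a bar at the median of each marker list. Points are genes and dashed lines mark 2-fold. Mogat2, Dgat2, Lpin3, Dgat1, Agpat2 and Lpin2 lie within the range of the enterocyte markers, 0.23 to 6.42, whose median is 3.32. The adipocyte markers range from -1.70 to 1.66 with a median of 0.31, and all enzymes but Mogat2 and Dgat2 lie within that range.

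The nearest patterns over the 4 pools differed among the 3 called enzymes. Likeness was the Euclidean distance between the log2 levels in the 4 pools, each gene centred on its own mean, among 12661 other genes. Nearest to Mogat2 were Myo1a, the brush-border myosin (distance 0.31), and Prap1 (0.51). Nearest to Dgat2 were Slc2a5, the fructose transporter of the gut (0.28), the adaptor gene Bcar3 (0.29) and the pore-forming Gsdmd (0.29). Nearest to Lpin3 were the kallikrein gene Klk1 (0.08), Lrrc66 (0.11) and Slc12a8 (0.13). Outside the HFD adipose pool Lrrc66 was near background, at 6.89 (ND adipose), 6.78 (HFD liver) and 6.83 (ND liver), and so was Slc12a8. Lpin3 was at 9.28, 9.14 and 9.23 in those pools, which limits the likeness.

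Other genes of the pathway were read from 6 lists of 82 genes in all. On the adipose array 9 of 76 measured were at least 2-fold higher in the HFD pool and 6 lower, against the same 4.23% and 5.13% of all genes. On the liver array 0 of 73 were higher and 1 lower, against 0.491% and 0.579% of all genes. No test could be run on these counts, for want of replicates.

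Among the other enzymes of the glycerol phosphate route, 3 of 14 were higher in HFD adipose tissue and none lower (median 0.08). These were Plpp2, a lipid phosphate phosphatase (1.49 ± 0.25), Gk, glycerol kinase (1.31 ± 0.32), and Gpd1, which makes glycerol-3-phosphate (1.18 ± 0.23). Their liver ratios were -0.27, 0.37 and 0.18. The related acyltransferase genes Gpat3, at 0.40 in adipose tissue and 0.36 in liver, and Gpat4, at -0.75 and 0.23, did not pass 2-fold.

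Genes that supply fatty acyl-CoA were split in fat. Acsl5, an acyl-CoA synthetase, was higher (1.58 ± 0.26). Slc27a5 (-4.24 ± 0.52) and Slc27a2 (-2.58 ± 0.33), acyl-CoA synthetases known from liver, and Acsl4 (-1.33 ± 0.24) were lower. The hepatocyte markers, 14 of 18 called lower, had a median of -4.15 on this array, and their part in the Slc27a5 and Slc27a2 ratios was not tested.

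Of the acyltransferases and loading genes, 3 of 9 measured were higher in HFD fat. Mttp, which loads triglyceride onto apolipoprotein B in gut and liver, was at 2.94 ± 0.36. Soat2, the cholesterol acyltransferase of the same organs, was at 2.65 ± 0.36, and Tm6sf2, a lipoprotein secretion gene, at 2.19 ± 0.31. In liver these had ratios of -0.06, -0.17 and -0.16. The enterocyte markers, 17 of 18 called higher, had a median of 3.32 on the adipose array, and their part in the ratios of Mttp, Soat2 and Tm6sf2 was not tested.

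Of the phospholipid branch, Cds1, which draws phosphatidate into CDP-diacylglycerol (1.56 ± 0.29), and Dgka, a diacylglycerol kinase (1.07 ± 0.22), were higher in HFD fat. Chka, choline kinase alpha, was the one pathway gene past 2-fold in liver, at a level of 8.75 in the HFD pool, against 10.10 in the ND pool (-1.36 ± 0.25). With all local backgrounds as deposited its liver ratio was -0.48 and no pathway gene passed 2-fold there, and with median centring 4 did. Chka was at 0.34 ± 0.23 in adipose tissue. As gene averages, regulators stayed within 2-fold on both arrays. Insig2, which holds back SREBP processing, was at -0.92 ± 0.22 in liver, the mean of probes at -1.14 and -0.70. Cebpa (-0.85 ± 0.22) and Cebpb (-0.82 ± 0.22), adipogenic factors, were the farthest in fat. With median centring some regulators, Insig2 among them, passed 2-fold in fat.

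As gene averages, triglyceride breakdown gave no gene past 2-fold upward in fat and 3 of 12 lower. These were Pnlip, pancreatic lipase (-2.64 ± 0.35), which is also in the pancreas marker list, Aadac (-1.33 ± 0.24) and Ces1f (-1.21 ± 0.23), hydrolases known from liver. The 15 measured pancreas markers had a median of -2.16 on that array, and their part in the Pnlip ratio was not tested. Lpl, lipoprotein lipase, averaged 0.54 in fat over 2 probes at -0.15 and 1.23. With the brightest probe per gene it was past 2-fold.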

How the data were processed

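Both arrays are 2-colour Agilent arrays, 1 per tissue. The image software was Agilent Feature Extraction 11.5.1.1 (protocol GE2_1105_Oct12) per the file headers, and 8.5.1.1 in the submitters' processing notes. The deposited intensity values are median pixel signals of spot and local background, without normalization. The deposited log10 ratio, red over green, includes the software's own background and dye correction, per the file headers. Here local backgrounds marked as outliers were replaced by the array's median, and limma 3.58.1 (R 4.3.3) then corrected the median signals by normexp (offset 50). Loess removed the trend of the ratio with brightness within each array, with control spots at weight 0. Without a dye swap, dye and diet cannot be told apart in that trend. Log2 channel levels were scaled by Aquantile. Values were averaged over spots of a probe, then over probes of a gene. Measured probes were well above background in both channels. Where only 1 channel was, the ratio is a bound, against the higher of the dim signal and the lowest signal among probes above background. Probes were named through RefSeq transcript accessions (27508 of 39429). Precision is limited by having 1 array per tissue. The ratio calculation was tested on simulated data. The enzymes and lists were chosen with earlier results of these data known. All 9 enzymes are named. Each list gives its members at least 2-fold on either array, or else the 3 with the largest ratios, and markers are named by the 3 largest. One gene that the rule for likeness names is not reported here. For Gpat3, Gpat4, Uvrag, Map6, Heph and Lpl the choice came after seeing the values. Besides these settings 9 alternatives were run, and 1 more, subtracting the running median of 201 genes by brightness, was added after seeing the data.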

Additional observations from a re-analysis of the deposited data

Results flagged for a closer look

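Of the enzymes, 4 had ratios of opposite sign in the 2 tissues, which was not tested, since each tissue has 1 array. The difference of the log2 ratios, adipose minus liver, was -0.78 for Mogat1 (combined scanner error 0.30), 1.00 for Agpat2 (0.30), 0.99 for Lpin2 (0.31) and 1.29 for Lpin3 (0.32). Both single ratios exceeded their own scanner errors for Mogat1 and Lpin2, while the liver ratios of Agpat2 and Lpin3 lay within theirs. With median centring all 8 of these ratios lay above 0 (the lowest, of Lpin2 in liver, at 0.00404), where the medians of all genes were 0.69 in adipose tissue and 0.32 in liver.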

How the results depend on the processing

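No paired analysis was possible because each tissue has 1 array without replicate numbers. Mogat2, Dgat2 and Lpin3 stayed past 2-fold in adipose tissue under all 9 alternatives and the added one, though some of these could not change them, as given below. Median centring leaves a trend of the ratio with brightness in place, in which dye and diet cannot be told apart. It gave 5 enzymes past 2-fold in adipose tissue (Dgat1 and Agpat2 added). Of the other pathway genes 43 passed 2-fold there, 39 of them higher, against 15, 9 of them higher. In liver median centring gave 1 enzyme (Dgat2, 1.18) and 4 other pathway genes, against 0 and 1. It moved the median of all genes by 0.69 in adipose tissue and 0.32 in liver, and relative to that median 8 of 9 enzymes in adipose tissue, all but Lpin1, and 9 of 9 in liver had the sign given above. In liver the scanner software's ratio gave 1 enzyme past 2-fold (Mogat2), and the brightest probe per gene gave 1 (Lpin1, lower), while with all local backgrounds as deposited 0 other pathway genes were past it (Chka at -0.48). Over all genes the share of higher calls moved too. In liver 45.9% of calls were higher, against 59.5% when 1 channel above background was enough, 56.9% without that filter and 36.4% with local backgrounds as deposited. That last setting gave 55 calls in liver, against 146, while the scanner software's ratio gave 295 there and 2131 in adipose tissue, against 1340, and median centring 473 and 4824. With median centring 94.1% were higher in liver and 87.2% in adipose tissue, where 45.1% were. The split of the Lpin1 probes in liver was present with the software's ratio, with median centring, with an offset of 10 and without subtracting background, and absent with local backgrounds as deposited (-0.66 and 0.12). Of 81 recomputed ratios per tissue, 70 in adipose tissue and 69 in liver moved by less than the scanner error. The looser background filters and the choice of the brightest probe could not change any enzyme but Lpin1. The others had 1 probe each, above background in both channels, and their unchanged ratios are counted among the 81. Signals near background limit Mogat2 in liver and the dimmer Lpin1 probe.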
